A study of Mus musculus with 12 samples.

Results

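The genes described here are 10 members of the lipoxygenase and leukotriene pathway, taken by symbol from the 47643 gene identifiers that both tables of sorted peritoneal macrophages (Mϕ) list. They are Pla2g4a, Alox5, Alox5ap, Alox15, Alox12, Lta4h, Ltc4s, Ltb4r1, Cysltr1 and Fpr2, and all 10 matched a row of both tables. The mice were young adult females of the C57BL/6 strain, every one of which received zymosan A (5 mg/kg) intraperitoneally to start a peritonitis that resolves by itself. From day 1 on, they received either compound III (CIII, 25 mg/kg), an inhibitor of the prostaglandin E2 synthase mPGES-1, or the vehicle of Tween-80, carboxymethyl cellulose and saline (VEH), once a day. At day 6, Mϕ were sorted from the lavage as F4/80lo Mϕ (CD45+, CD11b+, low in F4/80 and MerTK, high in MHCII) and as F4/80hi Mϕ (CD45+, CD11b+, high in F4/80 and MerTK). By the study's methods, cells positive for both CD11c and MHCII had first been set aside as dendritic cells, and F4/80lo Mϕ were also Ly6G-. The 4 groups, VEH and CIII in each subpopulation, had 3 libraries each, numbered 1 to 3. No untreated mice were among them, and whether a library came from 1 mouse or from several was not given in the sources used here.

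Leukotrienes are lipid mediators made from arachidonic acid. The phospholipase encoded by Pla2g4a frees arachidonic acid from membranes, and 5-lipoxygenase (Alox5), which needs the membrane protein FLAP (Alox5ap), turns it into the unstable leukotriene A4. Leukotriene A4 hydrolase (Lta4h) then makes the neutrophil attractant leukotriene B4, whereas leukotriene C4 synthase (Ltc4s) makes the first of the cysteinyl leukotrienes. Lipoxygenases that act at other carbons, among them the leukocyte-type enzyme of Alox15 and the platelet-type enzyme of Alox12, feed into lipoxins and related pro-resolving mediators, and Alox15 is a known gene of resident peritoneal Mϕ. Since mPGES-1 draws on the same arachidonic acid, the comparison of CIII with VEH asks whether the RNA of the neighbouring lipoxygenase branch differs when the prostaglandin E2 branch is blocked. The comparison of the subpopulations asks where each step of the pathway was expressed.

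Each library held 426624 to 3389448 reads assigned to genes, and levels are given per 1000000 of these reads (RPM). A level is the RNA of a sorted population, in which fewer cells of a type and less RNA per cell cannot be told apart. A count of 0 allows 0.885 to 7.03 RPM, depending on the library, and this limit covers counting error only. Because reads come from the 3′ end of transcripts, each gene is compared with itself across libraries and not with other genes.

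The 4 libraries with number 3 stood apart from the 8 others in both subpopulations and under both treatments. The RNA of Gm42418 took 2.65% to 14.3% of their reads and 0.0723% to 0.579% in the others. In F4/80hi Mϕ, Gata6, the transcription factor of resident peritoneal Mϕ, was at 23.2 to 52.0 RPM in numbers 1 and 2 but at 1.90 to 5.73 RPM in number 3. Adgre1, which encodes F4/80 itself, was at 1064 to 1336 RPM in F4/80hi numbers 1 and 2, at 366 to 368 RPM in F4/80hi number 3 and at 205 to 381 RPM in the 6 F4/80lo libraries. Ccr2, a receptor of monocytes, ran the other way, with 20.2 to 306 RPM in F4/80hi numbers 1 and 2 and 704 to 1199 RPM in number 3. The sum of the 6 monocyte-derived Mϕ markers that include Ccr2 overlapped, however. It was 781 to 1050 RPM in F4/80hi numbers 1 and 2 and 934 to 1669 RPM in F4/80hi number 3. The F4/80hi libraries of number 3 thus went against the resident markers of their label, and each difference of a member between groups is also given below without number 3. Mertk, also used for the sort, did not part the subpopulations (193 to 450 RPM in F4/80lo and 169 to 435 RPM in F4/80hi libraries).

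Several members followed the replicate number as well. Alox5 was at 8.57 to 43.0 RPM in the 4 libraries of number 3 and at 60.9 to 218 RPM in the 8 others. Alox15 was at 8.26 to 27.8 RPM in number 3 and at 29.97 to 1504 RPM in the others, again with no overlap. Fpr2 did the opposite, at 126 to 181 RPM in number 3 and 7.03 to 111 RPM in the others. These were 3 of the 9 members tested, while 11.2% of all 10736 genes tested had no overlap between number 3 and the other numbers.

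The regulatory windows of Ltb4r1 and Alox5 are shown because these members, with Alox15, parted the subpopulations without overlap in numbers 1 and 2. They are the 250 bases before the transcription start in RefSeq (GRCm38.p6), which holds such a window for 7 of the 10 members, but not for Alox15, Alox5ap or Cysltr1. The letters GGGCGG (GC box), GATAA (GATA core) and GGAAGT (ETS core) were searched on both strands, and matches are in capitals. The Ltb4r1 window is chr14:55765712-55765961 on the plus strand and the Alox5 window is chr6:116461179-116461428 on the minus strand, both written 5′ to 3′ along the gene.
Ltb4r1: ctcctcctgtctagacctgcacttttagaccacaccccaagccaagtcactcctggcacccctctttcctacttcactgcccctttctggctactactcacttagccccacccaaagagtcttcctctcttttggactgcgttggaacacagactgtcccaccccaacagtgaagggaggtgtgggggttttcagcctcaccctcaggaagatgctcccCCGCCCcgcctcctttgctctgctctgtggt
Alox5: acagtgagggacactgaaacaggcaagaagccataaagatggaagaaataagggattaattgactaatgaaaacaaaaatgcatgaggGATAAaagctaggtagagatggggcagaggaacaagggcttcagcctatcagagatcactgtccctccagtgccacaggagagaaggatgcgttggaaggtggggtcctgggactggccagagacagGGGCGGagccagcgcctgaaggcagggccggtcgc
Each window held 1 GC box, which 32.7% of the 32851 promoter windows of the same length contained. Alox5 also had 1 GATA core, present in 22.6% of all windows, and neither had an ETS core, present in 19.7%. The matches describe the letters only.

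**Figure D1:**
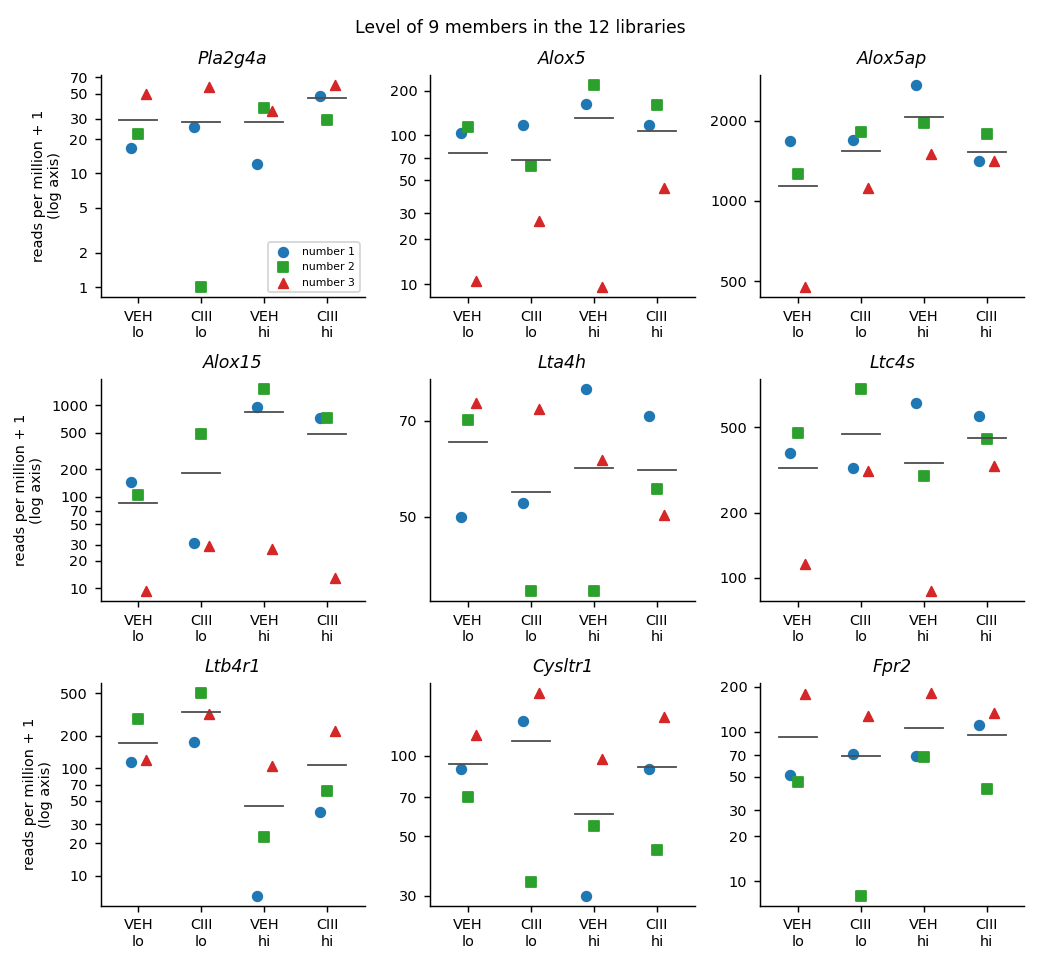
Level of 9 members in each of the 12 libraries (vertical log axis, RPM plus 1). Symbols give the replicate number, horizontal bars the mean of the 3 libraries of a group, and lo and hi stand for F4/80lo and F4/80hi. Number 3 (triangles) is lowest in every group for Alox5 (8.57 to 43.0 RPM), and Ltb4r1 is highest in the F4/80lo groups (112 to 499 RPM).

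Of the 10 members, 9 passed the minimum mean level of 3 RPM for the comparison of F4/80lo with F4/80hi Mϕ. Over the 12 libraries, 0 of these 9 passed the adjusted threshold of 0.05 in limma, against 4 of all 10736 genes (0.0373%), and 1 member, Ltb4r1, had an unadjusted p under 0.05, as did 1016 genes in all. With the replicate number as a block, which compares the subpopulations within the same treatment and number, Ltb4r1 was higher and Alox15 lower in F4/80lo Mϕ, 2 of 9 members against 4.79% of all genes. The same pair passed in the 8 libraries without number 3, a set chosen after the data were seen, where 3.21% of all genes did. Over the 12 libraries the subpopulations overlapped for each of the 9 members, as for all but 0.717% of the genes tested. The median log2 difference of the 9 members, F4/80lo minus F4/80hi, was -0.50, and that of all genes was 0.07.

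The first step, release of arachidonic acid, is represented by Pla2g4a (ENSMUSG00000056220, chr1:149829618-149961290, minus strand), the cytosolic phospholipase A2. Its level was 27.9 ± 21.3 RPM (SD, n = 6) in F4/80lo and 35.9 ± 16.3 RPM (SD, n = 6) in F4/80hi Mϕ. No read fell on it in the shallowest library (CIII F4/80lo number 2), where a count of 0 allows 7.03 RPM, and it was at 11.045 to 59.1 RPM in the 11 others. The subpopulations overlapped (log2 difference -0.93 ± 0.78 SE, and -1.51 ± 0.78 SE without number 3). This difference rested on that library, since without it the value was -0.06. It was -1.52 without CIII F4/80lo number 3, and among the VEH libraries alone it was 0.07.

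Alox5 (ENSMUSG00000025701, chr6:116410077-116461178, minus strand) encodes 5-lipoxygenase. Its F4/80lo levels were 103, 113 and 9.44 RPM in VEH numbers 1, 2 and 3 and 116, 60.9 and 25.5 RPM in CIII numbers 1, 2 and 3. Its F4/80hi levels were 162, 218 and 8.57 RPM (VEH) and 117, 160 and 43.0 RPM (CIII). Over the 12 libraries the subpopulations overlapped (log2 difference -0.60 ± 0.78 SE, limma adjusted p = 0.853). The difference was -0.03 without VEH F4/80lo number 3, -0.19 without VEH F4/80hi number 2, -0.29 without VEH F4/80hi number 1, -0.32 without CIII F4/80lo number 3 and -1.32 without VEH F4/80hi number 3. In numbers 1 and 2 all 4 F4/80lo libraries were below all 4 F4/80hi libraries, although by as little as 116 against 117 RPM. Such a separation in these 8 libraries was seen for 3 of 9 members (Alox5, Alox15 and Ltb4r1) and for 9.48% of all genes. The log2 difference there was -0.75 ± 0.27 SE, which did not pass (limma adjusted p = 0.164), and the two-sided exact permutation p was 0.0286, the smallest that 4 against 4 libraries can give.

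Alox5ap (ENSMUSG00000060063, chr5:149264767-149288153, plus strand) encodes FLAP, the membrane protein that presents arachidonic acid to 5-lipoxygenase. F4/80lo levels were 1679, 1263 and 474 RPM in VEH numbers 1 to 3, and 1687, 1819 and 1121 RPM in CIII. The F4/80hi levels were 2725, 1962 and 1499 RPM in VEH numbers 1 to 3, and 1407, 1774 and 1411 RPM in CIII. VEH F4/80lo number 3 was the lowest of the 12, and the subpopulations overlapped (log2 difference -0.50 ± 0.33 SE, limma adjusted p = 0.673, -0.26 ± 0.25 SE without number 3 and -0.23 without VEH F4/80lo number 3). In VEH all 3 matched pairs were lower in F4/80lo, with a mean log2 difference of -0.997, and in CIII 1 of 3 was, with a mean of -0.01.

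Alox15 (ENSMUSG00000018924, chr11:70344152-70352031, minus strand) encodes the leukocyte-type lipoxygenase. F4/80lo Mϕ had 143, 105 and 8.26 RPM of it in VEH numbers 1 to 3 and 29.97, 478 and 27.8 RPM in CIII. F4/80hi Mϕ had 961, 1504 and 25.7 RPM in VEH and 714, 716 and 12.04 RPM in CIII. The 4 F4/80hi libraries of numbers 1 and 2 were thus higher than every other library, and the F4/80hi libraries of number 3 lay within the F4/80lo range. Over all libraries the log2 difference was -2.01 ± 1.22 SE (limma adjusted p = 0.643, two-sided exact permutation p = 0.190), and 5 of 6 matched pairs were lower in F4/80lo Mϕ. With the replicate block the same difference had an SE of 0.49 and passed (limma adjusted p = 0.0246). Without number 3 it was -2.92 ± 0.55 SE (limma adjusted p = 0.00622), a 7.57-fold lower level in F4/80lo Mϕ on the scale of RPM plus 1. Number 3 was left out after the data were seen, and Alox15 was lowest there. The larger difference is thus not independent of that choice. The block and this fit were the 2 of 26 alternatives in which Alox15 passed. In number 3 alone, the VEH pair differed by -1.53 and the CIII pair by 1.14 on the log2 scale.

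Alox12 (ENSMUSG00000000320, chr11:70241457-70255353, minus strand), the platelet-type enzyme, had 1 read in all 12 libraries together, in VEH F4/80lo number 3 (0.295 RPM), and was not tested. Of the 4 other lipoxygenase genes listed (Alox12b, Alox12e, Alox8 and Aloxe3), 3 had at least 1 read and none more than 14 reads over the 12 libraries.

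Lta4h (ENSMUSG00000015889, chr10:93453411-93484875, plus strand) had the narrowest range of the 9 members tested, 37.5 to 77.3 RPM. Its mean level was 58.8 ± 14.8 RPM (SD, n = 6) in F4/80lo and 58.1 ± 14.4 RPM (SD, n = 6) in F4/80hi Mϕ, with a log2 difference of 0.01 ± 0.27 SE (-0.19 ± 0.33 SE without number 3, and -0.13 to 0.13 when 1 library was left out). Ltc4s (ENSMUSG00000020377, chr11:50236461-50238616, minus strand) was at 391 ± 211 RPM in F4/80lo and 392 ± 200 RPM in F4/80hi Mϕ (SD, n = 6 each), with a log2 difference of 0.04 ± 0.47 SE (-0.03 ± 0.30 SE without number 3, and -0.35 to 0.37 when 1 library was left out). Its lowest libraries were VEH number 3 of both subpopulations, at 115 RPM in F4/80lo and 85.7 RPM in F4/80hi Mϕ, and the 10 others lay between 295 and 750 RPM. The antisense gene Gm26542 overlaps Ltc4s and had 31 reads in the 12 libraries, against 4400 on Ltc4s.

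Ltb4r1 (ENSMUSG00000046908, chr14:55765962-55768494, plus strand) encodes BLT1, the high-affinity receptor for leukotriene B4. In F4/80lo Mϕ it was at 112, 287 and 117 RPM in VEH numbers 1 to 3 and at 175, 499 and 315 RPM in CIII. F4/80hi Mϕ had 5.52, 21.7 and 103 RPM in VEH and 38.3, 60.9 and 222 RPM in CIII. F4/80lo was the higher of the pair in 6 of 6 matched pairs, a uniform direction that 11.4% of all genes tested showed. The subpopulations overlapped only through CIII F4/80hi number 3, and the other F4/80hi libraries stayed below 112 RPM. Over all libraries the log2 difference was 2.28 ± 0.59 SE, 4.84-fold on the scale of RPM plus 1. It did not pass in limma (adjusted p = 0.190), whereas the two-sided exact permutation p for this gene alone was 0.0173.

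With the replicate block, Ltb4r1 passed (SE 0.39, limma adjusted p = 0.00259). Without number 3 the log2 difference was 3.24 ± 0.44 SE (limma adjusted p = 0.000403), a 9.45-fold higher level in F4/80lo Mϕ. Within number 3 the pairs differed by 0.19 in VEH and 0.50 in CIII. It also passed without VEH F4/80hi number 3 alone (log2 difference 2.79, limma adjusted p = 0.0154) and with libraries weighted by their fit (2.55, limma adjusted p = 0.00744). These were 4 of 26 alternatives. Ltb4r1 did not pass in the others, among them edgeR and DESeq2 on the recovered reads. In VEH or CIII libraries alone, the limma adjusted p was 0.740 and 0.926.

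Cysltr1 (ENSMUSG00000052821, chrX:106574346-106603679, minus strand) encodes the receptor for the cysteinyl leukotrienes C4 and D4. Its level was 102 ± 49.0 RPM in F4/80lo and 74.7 ± 40.5 RPM in F4/80hi Mϕ (SD, n = 6 each), higher in F4/80lo in 5 of 6 matched pairs, with a log2 difference of 0.46 ± 0.43 SE (0.54 ± 0.41 SE without number 3, and 0.23 to 0.82 when 1 library was left out, the extremes without CIII F4/80lo numbers 3 and 2). Gm5127 overlaps it on the opposite strand and had 24 reads, against 1402 on Cysltr1. Fpr2 (ENSMUSG00000052270, chr17:17887824-17893952, plus strand) encodes the formyl peptide receptor that also binds lipoxin A4, annexin A1 and serum amyloid A. Its level was 79.5 ± 62.2 RPM in F4/80lo and 99.7 ± 51.7 RPM in F4/80hi Mϕ (SD, n = 6 each). It was lower in F4/80lo in 6 of 6 matched pairs, by 0.02 to 2.37 on the log2 scale, and the mean difference of -0.68 ± 0.61 SE did not pass (limma adjusted p = 0.777 and, with the replicate block, 0.151). Its largest pair difference came from CIII F4/80lo number 2, where Fpr2 had 3 reads, and the mean difference was -0.09 without this library, -0.44 without VEH F4/80hi number 3 alone, -1.08 without CIII F4/80lo number 3 alone and -1.001 without number 3.

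**Figure D2:**
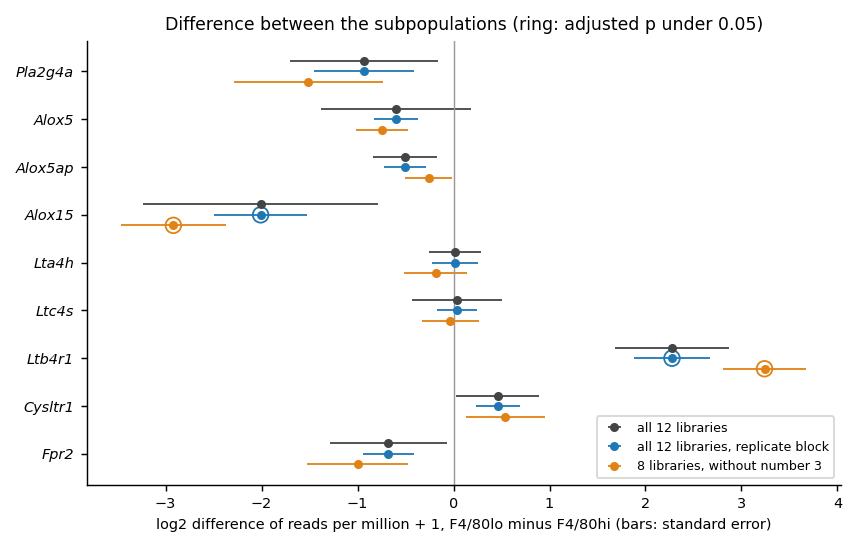
Log2 difference of RPM plus 1 between F4/80lo and F4/80hi Mϕ for 9 members (horizontal axis, positive where F4/80lo is higher). Dots are estimates from all 12 libraries, from the same libraries with the replicate block and from the 8 libraries without number 3, bars are standard errors, and rings mark an adjusted p under 0.05. Rings are on Ltb4r1 (2.28 with the block, 3.24 without number 3) and Alox15 (-2.01 and -2.92).

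Alox15 and Ltb4r1 were set beside the markers of resident and of other cells. The sum of 9 resident Mϕ markers was 1438 to 2488 RPM in F4/80hi numbers 1 and 2, 178 to 281 RPM in F4/80hi number 3 and 123 to 624 RPM in F4/80lo libraries. Alox15 was above 700 RPM in exactly the 4 libraries with the highest sums, and Ltb4r1 was lowest in the same 4. The sum of 6 monocyte-derived Mϕ markers was 1710 to 5537 RPM in F4/80lo and 781 to 1669 RPM in F4/80hi libraries. The sum of 6 dendritic cell markers, led by Cd209a, was 125 to 260 RPM in F4/80lo numbers 1 and 2, 5.02 to 31.3 RPM in F4/80lo number 3 and 1.35 to 21.7 RPM in F4/80hi libraries, although the gate was drawn to leave out cells positive for both CD11c and MHCII. Within F4/80hi Mϕ, Ltb4r1 did not rank with the monocyte-derived and dendritic cell sums in every library. CIII F4/80hi number 3, at 222 RPM of Ltb4r1, had sums of 934 and 4.01 RPM. CIII F4/80hi number 1, at 38.3 RPM of Ltb4r1, had 1050 and 8.78 RPM. The part of monocyte-derived Mϕ and of dendritic cells in the difference of Ltb4r1 was not tested. Neither was the part of the resident markers in that of Alox15.

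**Figure D3:**
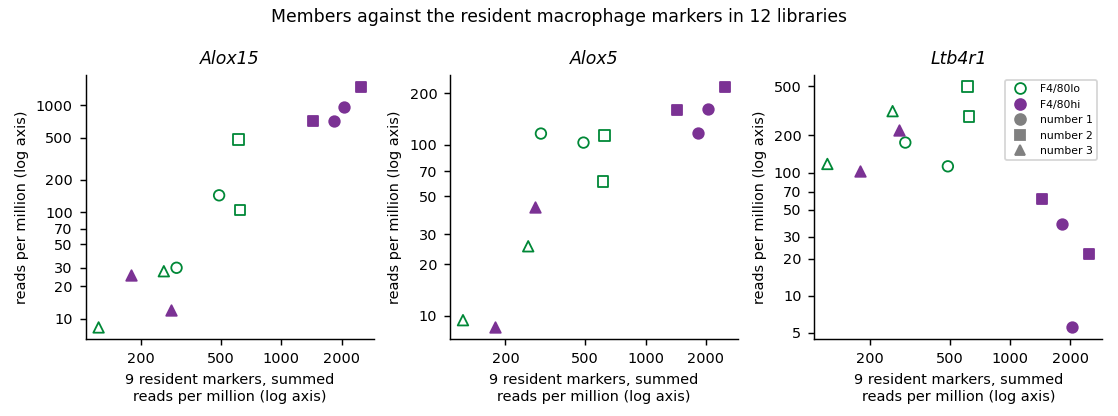
Level of Alox15, Alox5 and Ltb4r1 (vertical log axes, RPM) against the summed level of 9 resident Mϕ markers (horizontal log axis, RPM) in the 12 libraries. Open symbols are F4/80lo and filled symbols F4/80hi libraries, and the shape gives the replicate number. The 4 F4/80hi libraries of numbers 1 and 2 lie at the right (1438 to 2488 RPM), high in Alox15 and low in Ltb4r1, and the F4/80hi libraries of number 3 lie among the F4/80lo libraries.

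Markers of other cell types were detected at varying levels. Of 10 mast cell and basophil markers, 4 (Mcpt4, Mcpt8, Fcer1a and Ms4a2) were at 0 in all 12 libraries. The list summed to 22.4 to 81.0 RPM in F4/80hi numbers 1 and 2, led by Hdc, and to at most 9.99 RPM in the 8 others. In F4/80hi numbers 1 and 2, 6 of the 10 markers were at 0, the further ones being Tpsab1 and Cma1. Hdc alone made up the highest sum, 81.0 RPM in VEH F4/80hi number 2. The 4 F4/80hi libraries of numbers 1 and 2 are also those in which Alox15 was above 700 RPM. Whether Hdc marked mast cells or basophils there was not tested, nor was any part of such cells in the difference of Alox15. The eosinophil markers Epx, Prg2 and Il5ra were at 0 throughout, and the 6 markers summed to 0 to 105 RPM, led by Ear2 in F4/80lo Mϕ. The 12 neutrophil markers summed to 36.9 to 139 RPM, with Camp and Ngp at 0 throughout. The platelet marker Gp9 was at 0, and 6 platelet markers summed to 0 to 51.6 RPM, led by Treml1. The 5 mesothelial markers reached 1.195 RPM at most. The 7 B cell markers, led by Ighm, summed to 20.4 to 189 RPM in F4/80lo and 0 to 63.9 RPM in F4/80hi libraries. The 7 T and NK cell markers summed to 8.37 to 37.5 RPM in F4/80lo and 0 to 37.1 RPM in F4/80hi libraries.

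Of the other genes of the pathway, those that release or re-esterify arachidonic acid numbered 19, of which 12 were tested and 0 passed between the subpopulations in limma, in any of the 3 fits above. Their median log2 difference was -0.18, and the smallest p-values belonged to the phospholipases Pla2g16 (-0.56 ± 0.28 SE) and Pla2g15 (-0.43 ± 0.26 SE) and the acyltransferase Mboat7 (0.39 ± 0.29 SE). Of 19 genes that conjugate, cleave, oxidise or export leukotrienes and related epoxides, 13 were tested and 0 passed, with a median of 0.30. With the replicate block 2 were higher and 2 lower in F4/80lo Mϕ. The higher ones were Ggt5, whose enzyme converts leukotriene C4 to D4 (log2 difference 2.27 ± 0.63 SE, limma adjusted p = 0.0456), and Cyp4f18, a leukotriene B4 hydroxylase (1.88 ± 0.42 SE, limma adjusted p = 0.0146). Cyp4f18 also passed without number 3 and Ggt5 did not (limma adjusted p = 0.0182 and 0.183). Ggt5 was weakly expressed, at 0 to 16.9 RPM in F4/80lo and 0 to 2.29 RPM in F4/80hi Mϕ. The lower ones, named after their values were seen, were the glutathione transferase Mgst1 (-1.09 ± 0.24 SE, limma adjusted p = 0.0135) and Ptgr1, which inactivates leukotriene B4 (-0.90 ± 0.23 SE, limma adjusted p = 0.0307), and neither passed without number 3. Cyp4f13 had the p between those of Ggt5 and Cyp4f18 over the 12 libraries, at 1.26 ± 0.42 SE (limma adjusted p = 0.340).

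Among 12 further receptors for leukotrienes and pro-resolving mediators, 4 were tested and 0 passed, with a median log2 difference of 0.44. Gpr132, a receptor for oxidised fatty acids, was at 27.5 to 54.6 RPM in F4/80lo and 2.89 to 31.5 RPM in F4/80hi Mϕ. Its log2 difference was 1.69 ± 0.45 SE, which passed with the replicate block (limma adjusted p = 0.0175) and without number 3 (0.0110). Gpr18 (1.59 ± 0.67 SE) and Fpr1 (-1.14 ± 0.55 SE) did not pass with the block. Cmklr1, a chemerin receptor named after its values were seen, was lower in F4/80lo Mϕ with the block (-0.71 ± 0.17 SE, limma adjusted p = 0.0209) and did not pass without number 3. Among 10 partners of 5-lipoxygenase and peptide ligands of Fpr2, 8 were tested, with a median of -0.23, and 1 passed over the 12 libraries. This was Saa3, a serum amyloid A that is a ligand of Fpr2, at 421 to 833 RPM in F4/80lo and 1748 to 6324 RPM in F4/80hi libraries, with no overlap. Its log2 difference was -2.36 ± 0.33 SE (limma adjusted p = 0.0462), and it passed with the block (3.14e-05) and without number 3 (2.28e-05) as well. The call was lost with a pseudocount of 0.5 (limma adjusted p = 0.0503), without the filter on low values (0.0963), in VEH (0.467) or CIII (0.241) libraries alone, and without any 1 library (up to 0.228) other than VEH F4/80lo number 3, VEH F4/80hi number 3 or CIII F4/80hi number 3. Anxa1, which encodes the Fpr2 ligand annexin A1 and was named after its values were seen, was lower in F4/80lo Mϕ without number 3 (-1.01 ± 0.23 SE, limma adjusted p = 0.0234) and did not pass in the other fits. The kinase gene Mapk14 (0.74 ± 0.22 SE) and Hebp1 (-1.50 ± 0.64 SE) followed, of which Mapk14 passed with the block (limma adjusted p = 0.0352) but not without number 3 (0.144).

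CIII against VEH was compared within each subpopulation on log2 of the normalised read count plus 1. In F4/80lo Mϕ 9 of 10 members were tested and 0 passed in limma, as did 0 of 10718 genes (0.0%), with 289 genes and 0 members at an unadjusted p under 0.05. Likewise, 9 members were tested in F4/80hi Mϕ and 0 passed, as did 0 of 10499 genes (0.0%), with 413 genes and 0 members at an unadjusted p under 0.05. Counts by edgeR and DESeq2 on the recovered reads were also 0 members in each, as were those in limma without number 3. The median log2 difference of the members, CIII minus VEH, was 0.15 in F4/80lo (all genes -0.05) and 0.33 in F4/80hi Mϕ (all genes 0.05). With 3 against 3 libraries an exact permutation test cannot go below p = 0.1.

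Ltb4r1 was the member that was higher under CIII in all 3 numbers of both subpopulations. The share of all genes with 1 direction across both was not determined. Same-numbered libraries of the subpopulations deviated together, so their directions are not independent. In F4/80lo Mϕ its normalised read counts were 109, 261 and 133 in VEH numbers 1 to 3 and 162, 487 and 301 in CIII. The log2 difference was 0.88 ± 0.47 SE (limma adjusted p = 1.00, two-sided exact permutation p = 0.2) and the groups overlapped. Without CIII F4/80lo number 2 it was 0.50, and without CIII F4/80lo number 1 it was 1.29. The counts in F4/80hi Mϕ were 5.32, 19.6 and 113 in VEH and 34.7, 54.1 and 212 in CIII, with a log2 difference of 1.60 ± 1.01 SE (limma adjusted p = 0.992, two-sided exact permutation p = 0.4), and the groups overlapped there too. With the replicate block the adjusted p in limma was 0.682 for F4/80lo and 0.168 for F4/80hi Mϕ. Without number 3 the log2 differences were 0.73 ± 0.44 SE and 1.96 ± 0.63 SE. In VEH F4/80hi number 1, Ltb4r1 rested on 4 reads, and without this library the F4/80hi difference was 0.62. It was 0.85 without CIII F4/80hi number 3 and 2.71 without VEH F4/80hi number 3.

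A uniform direction over the 3 numbers was seen in 2 of 9 members in F4/80lo Mϕ, where 28.8% of all genes had it, and in 3 of 9 in F4/80hi Mϕ, where 33.8% had it, so that the members were near the share of all genes. Besides Ltb4r1 these were Lta4h in F4/80lo Mϕ (-0.35 ± 0.41 SE, and -0.39 ± 0.50 SE without number 3) and, in F4/80hi Mϕ, Alox5ap and Alox15, all 3 with lower values under CIII. Alox5ap was the 1 member whose groups did not overlap in F4/80hi Mϕ, as was the case for 10.5% of all genes. Its normalised read counts were 2625, 1773 and 1651 in VEH numbers 1 to 3 and 1272, 1574 and 1346 in CIII, with a log2 difference of -0.50 ± 0.39 SE (limma adjusted p = 0.992, two-sided exact permutation p = 0.1). In F4/80lo Mϕ, where 0 members and 8.73% of all genes did not overlap, Alox5ap differed by 0.52 ± 0.47 SE. Without number 3 the Alox5ap differences were -0.61 ± 0.35 SE for F4/80hi and 0.28 ± 0.35 SE for F4/80lo Mϕ. The F4/80hi difference was -0.30 without VEH F4/80hi number 1, and the F4/80lo difference was 0.07 without VEH F4/80lo number 3 and 0.87 without VEH F4/80lo number 1. The F4/80lo difference of Lta4h, which in number 1 was only -0.0053, was -0.14 without CIII F4/80lo number 2, -0.15 without VEH F4/80lo number 3, -0.54 without VEH F4/80lo number 1 and -0.58 without CIII F4/80lo number 3. In F4/80hi Mϕ, Lta4h differed by -0.07 ± 0.40 SE, by 0.13 ± 0.46 SE without number 3, and by between -0.41 (without VEH F4/80hi number 2) and 0.14 (without VEH F4/80hi number 1) when 1 library was left out.

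Alox15 in F4/80hi Mϕ had normalised read counts of 925, 1359 and 28.3 in VEH numbers 1 to 3 and 645, 636 and 11.5 in CIII. Within the numbers the log2 differences were -0.52, -1.09 and -1.23, whereas the spread between numbers was far larger. The mean difference was -0.95 ± 1.73 SE (limma adjusted p = 0.992), and with the replicate block -0.95 ± 0.25 SE (0.199). Without number 3 it was -0.81 ± 0.33 SE (0.626). Leaving out 1 library turned its direction, to 0.95 without CIII F4/80hi number 3 and 0.07 without VEH F4/80hi number 2, and it was -2.70 without VEH F4/80hi number 3 (-1.90 to -0.21 without each of the other 3 libraries). The 3 numbers of F4/80lo Mϕ differed by -2.29, 2.28 and 1.41, that is, in both directions, and without number 3 their mean difference was -0.01 ± 0.66 SE. Over all numbers it was 0.47, and it was -0.88 without CIII F4/80lo number 2, -0.70 without VEH F4/80lo number 3 and 0.91 to 1.19 without each of the other 4 libraries. With libraries weighted by their fit it turned to -1.41.

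The remaining members moved in both directions between numbers in at least 1 subpopulation. Alox5 was higher under CIII in number 3 of both subpopulations (by 1.12 and 2.01) and lower in number 2 of both (-0.78 and -0.47). Without number 3 it differed by -0.34 ± 0.43 SE (F4/80lo) and -0.51 ± 0.35 SE (F4/80hi), and its mean differences over all numbers, 0.15 and 0.33, were -0.90 and -1.03 without VEH number 3 of the same subpopulation. They also turned negative without CIII F4/80lo number 1 (-0.34) and CIII F4/80hi number 2 (-0.03), and were at most 0.70 (without CIII F4/80lo number 3) and 1.09 (without VEH F4/80hi number 2). On the recovered reads of all libraries they were -0.13 and -0.32 in edgeR and -0.14 and -0.33 in DESeq2. With libraries weighted by their fit they were 0.02 and -0.14. Ltc4s was higher in numbers 2 and 3 and lower in number 1 of both, with mean log2 differences of 0.55 ± 0.51 SE in F4/80lo and 0.66 ± 0.61 SE in F4/80hi Mϕ, and of 0.23 ± 0.38 SE and 0.13 ± 0.41 SE without number 3. Its F4/80lo difference was 0.02 without VEH F4/80lo number 3, 0.12 without CIII F4/80lo number 2 and 0.87 without VEH F4/80lo number 2. With libraries weighted by their fit it was -0.08. The F4/80hi difference of Ltc4s was -0.04 without VEH F4/80hi number 3 and 1.31 without VEH F4/80hi number 1. Cysltr1 differed by -0.05 ± 0.57 SE and 0.49 ± 0.58 SE, and by -0.22 ± 0.51 SE and 0.58 ± 0.49 SE without number 3. Its F4/80lo difference was 0.65 without CIII F4/80lo number 2, 0.23 without VEH F4/80lo number 3 and -0.50 without CIII F4/80lo number 3. Its F4/80hi difference was 0.05 without VEH F4/80hi number 1, 0.08 without CIII F4/80hi number 3, 0.95 without CIII F4/80hi number 2 and 0.99 without VEH F4/80hi number 3. Pla2g4a (-1.27 ± 1.21 SE and 0.70 ± 0.56 SE) and Fpr2 (-0.92 ± 0.90 SE and -0.25 ± 0.59 SE) were lowest in CIII F4/80lo number 2, and without this library their F4/80lo differences were 0.45 and 0.25. Without number 3, Pla2g4a differed by -1.89 ± 1.14 SE and 0.76 ± 0.59 SE and Fpr2 by -1.01 ± 0.70 SE and -0.05 ± 0.49 SE. Without CIII F4/80lo number 3 alone, their F4/80lo differences were -2.44 and -1.73, and without VEH F4/80lo number 3 alone -0.72 and -0.21. The F4/80hi difference of Pla2g4a was 0.15 without VEH F4/80hi number 1 and 0.44 without CIII F4/80hi number 3. That of Fpr2 turned to 0.30 without VEH F4/80hi number 3 and to 0.28 without CIII F4/80hi number 2, and reached -0.60 without CIII F4/80hi number 3. The response of the subpopulations to CIII differed significantly for 0 of 9 members and 0 of 10097 genes (0.0%) in limma, with 0 members and 173 genes at an unadjusted p under 0.05.

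**Figure D4:**
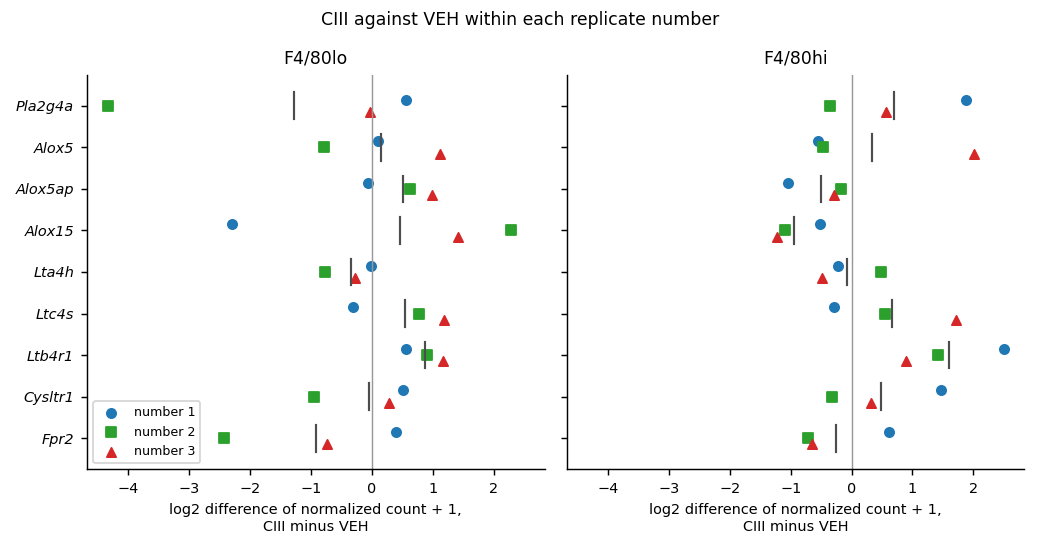
Log2 difference of the normalised read count plus 1, CIII minus VEH (horizontal axes), within each replicate number for 9 members, in F4/80lo (left) and F4/80hi Mϕ (right). Symbols are single numbers and vertical bars their mean. Ltb4r1 lies to the right of 0 in all 3 numbers of both panels (means 0.88 and 1.60), and Alox15 spans -2.29 to 2.28 in F4/80lo Mϕ.

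In the other lists 0 genes passed between CIII and VEH in either subpopulation. The genes with the smallest p in F4/80lo Mϕ were Pla2g15 (0.77 ± 0.38 SE), Ggt5 (2.28 ± 0.88 SE), Gpr18 (2.05 ± 0.96 SE) and Saa3 (-0.47 ± 0.37 SE), 1 for each list with tested genes. In F4/80hi Mϕ they were Pla2g16 (-1.51 ± 0.43 SE), Abcc4, an exporter of leukotrienes (1.34 ± 0.43 SE), Gpr132 (0.89 ± 0.82 SE) and Cotl1, which binds 5-lipoxygenase (-0.72 ± 0.39 SE). The adjusted p in limma was 1.00 for the 4 genes named in F4/80lo Mϕ and 0.992 for the 4 in F4/80hi Mϕ.

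The likeness of patterns was described by Pearson's r over the 12 libraries among 6621 genes with a mean of at least 20 RPM. These libraries share replicate numbers and sorts, so that r is a description without a test. Alox15 was most like Prg4 (r = 0.99), Ltbp1 (0.98) and Tgfb2 (0.98), and Prg4 is a marker of resident peritoneal Mϕ. Ltb4r1 was most like AI504432 (0.96), 4833420G17Rik (0.94) and Pitpnm1 (0.93). Alox5 was most like Tspan14 (0.98), Kifc1 (0.98) and Acot2 (0.97), Alox5ap like Slc48a1 (0.95), Dbi (0.95) and Slc25a3 (0.93), and Ltc4s like Sh3tc1 (0.97), Trim47 (0.93) and Gga3 (0.93). Cysltr1 was most like Gab3 (0.94), Smarca5 (0.93) and Pde4b (0.93), and Lta4h like Ssrp1 (0.84), 5330406M23Rik (0.82) and Ptpn11 (0.82). Pla2g4a was most like Selenoi (0.96), Zmat3 (0.95) and Cstf3 (0.94), and Fpr2 like Lap3 (0.95), Mitd1 (0.95) and Ddx54 (0.94). Among the members themselves, r was highest between Pla2g4a and Fpr2 (0.90), followed by Alox5 with Alox15 (0.78) and with Ltc4s (0.77), and lowest between Alox15 and Cysltr1 (-0.82). Over the 8 libraries without number 3, r was 0.92 between Pla2g4a and Fpr2, 0.41 between Alox5 and Alox15, -0.54 between Alox5 and Ltc4s and -0.71 between Alox15 and Cysltr1. The r of Alox5 with Alox15 was thus lower without number 3, and that with Ltc4s turned negative. Alox15 kept an r of 0.98 with Prg4 there, and Ltb4r1 one of 0.97 with AI504432.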

How the data were processed

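The authors sequenced 3′ libraries with unique molecular identifiers on RNA of sorted F4/80lo and F4/80hi Mϕ and processed them with the Bluebee QuantSeq pipeline, in which, per the labels, STAR, HTSeq and DESeq2 were used with GRCm38. The deposited tables hold read counts per gene divided by 1 size factor per library (a scaled signal), set by the authors separately for each subpopulation. Each value (100%) came out whole when divided by what 1 read is worth (tolerance 0.05), and whole reads were recovered in this way, so that the 12 libraries could be put on 1 scale (RPM). Levels across the 2 tables are on this scale. Gene symbols and coordinates (GENCODE M21) matched 47224 of 47643 identifiers.

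CIII was compared with VEH within each table by limma 3.58.1 (R 4.3.3, trended prior) on log2(normalised read count + 1), for genes with a mean of at least 3. F4/80lo was compared with F4/80hi on log2(RPM + 1) over the 12 libraries. P-values were two-sided with Benjamini-Hochberg adjustment over all genes tested and a threshold of 0.05, and single members were also tested by exact permutation (scipy 1.17.1). Fold changes on these scales understate those of weak genes. The test scripts were tested on simulated data. Alternatives included edgeR 4.0.16 and DESeq2 1.42.0 on the recovered reads. Nothing in the labels says that libraries came from separate mice, so p-values measure the spread between libraries. Same-numbered libraries deviated together from their group means (r across genes 0.121 to 0.504 between treatments in F4/80lo, 0.216 to 0.639 in F4/80hi, 0.259 to 0.685 between subpopulations). Each of these was above 0.1, a limit that some pairs of different number also passed. The number was treated as pairing in the replicate block, from these deviations alone. Libraries of different number reached 0.171 and 0.285 between treatments (VEH number 1 with CIII number 2, above VEH number 1 with its own number in both subpopulations), so numbers 1 and 2 are not cleanly paired there, and 0.211 between subpopulations.

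The members and the gene lists were chosen with earlier results of these data known. Besides the members, the genes named were, per list of pathway genes, the 3 with the smallest p between subpopulations and the 1 with the smallest p for CIII in each table, the strongest markers of each cell type list, and the 3 genes most like each member. Gata6, Adgre1, Mertk, Ccr2, Gm42418 and the markers at 0 were picked for naming once their values were known. Plots were made with matplotlib 3.10.9.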

Additional observations from a re-analysis of the deposited data

How the results depend on the processing

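Between F4/80lo and F4/80hi Mϕ, 4 genes and 0 members passed over the 12 libraries. With the replicate block, a pairing taken from the deviations of libraries alone, 514 genes and 2 members (Ltb4r1, Alox15) passed. Without the libraries of number 3, chosen after seeing the data, 343 genes and the same 2 members did. Array weights gave 322 genes and 1 member (Ltb4r1), and DESeq2 141 genes and 0 members. The count was 11 with a pseudocount of 5, 2 with a filter at a mean of 10, quantile normalization, TMM scaling, DESeq2 size factors or edgeR, and 0 with a pseudocount of 0.5, without a filter, or in VEH or CIII libraries alone. Leaving out each library in turn gave 0 to 124 genes and 0 to 1 member, the most without VEH F4/80hi number 3 (124) and VEH F4/80lo number 3 (54). In all 26 alternatives the log2 difference of Ltb4r1 was positive (1.63 to 3.24) and that of Alox15 negative (-2.97 to -1.32).

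For CIII against VEH in F4/80lo Mϕ, 0 genes passed, against 2 with array weights, 2 with DESeq2 and 12 without number 3. In F4/80hi Mϕ and for the difference of the responses 0 genes passed under every alternative, and 0 members passed in these 3 comparisons under every alternative. The replicate block changed no other call. Depth limits the weak members most, since 1 read in CIII F4/80lo number 2 is worth 2.28 normalised counts.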
